A study of Mus musculus with 6 samples.

Results

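The 10 genes that answer to bone morphogenetic protein (BMP) signalling and were followed here, in chondrocytes of the mouse cranial base, are Id1, Id2, Id3, Id4, Smad6, Smad7, Smad9, Bambi, Atoh8 and Bmpr1b. They were taken by symbol, and all 10 were listed among the 24346 gene symbols of each library. Each library is RNA-seq of a laser-cut layer of the spheno-occipital synchondrosis, a growth cartilage that joins the sphenoid and occipital bones, in a study of flat against round chondrocytes. The 6 libraries carry the codes FP (3 libraries) and RR (3 libraries), numbered 11, 14 and 16 in each, and no label spells the codes out. All 6 share the genotype Gli1CreERT2; Tomato flox and tamoxifen at postnatal day 3, so the groups differ by the layer cut and not by an allele or a drug. Gli1CreERT2 places an inducible Cre under the Gli1 gene, and the reporter marks cells in which it was active. How old the mice were when the cartilage was taken is not stated. Nor do the labels tie libraries to separate animals, and the p-values then measure only how far these samples spread, which may be technical.

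BMP ligands bind pairs of type I and type II receptors, which phosphorylate the transducers SMAD1, SMAD5 and SMAD9. With SMAD4 these enter the nucleus and switch on target genes, among which the Id genes are the most widely used readout. Id proteins have a helix-loop-helix but no DNA-binding region, and they hold bHLH factors away from DNA. Smad6, Smad7 and Bambi are targets that also damp the signal. In the growth plate, BMP signalling is known for promoting chondrocyte proliferation and hypertrophy.

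To show what the starts of these genes look like, stretches of RefSeq promoter sequence (build GRCm38.p6) are given for 4 members. Windows from 250 bases before to 50 bases after a gene's start were present for 7 of the 10 members. Capitals mark GGCGCC, a GC-rich sequence bound by BMP-activated SMADs, in the first 3, and GTCTAGAC, the palindromic SMAD4 sequence, in Smad6. All run 5′ to 3′ on the strand of the gene.
Id2 (chr12:25096278-25096342, minus strand): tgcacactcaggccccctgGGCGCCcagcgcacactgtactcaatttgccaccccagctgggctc
Id4 (chr13:48260928-48261013, plus strand): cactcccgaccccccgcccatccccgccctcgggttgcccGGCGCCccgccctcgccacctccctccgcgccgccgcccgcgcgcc
Smad9 (chr3:54755491-54755576, plus strand): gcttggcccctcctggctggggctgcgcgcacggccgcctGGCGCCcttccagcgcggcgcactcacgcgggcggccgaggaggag
Smad6 (chr9:64022056-64022103, minus strand): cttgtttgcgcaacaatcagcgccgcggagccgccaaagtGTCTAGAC
The GGCGCC match began 231 bases before the RefSeq start in Id2, 148 before it in Id4 and 51 before it in Smad9, and the Smad6 match began 4 bases before the start. The Smad6 match thus runs across the start, and the end of that stretch is exonic. The Id2 stretch, though before the RefSeq start, lies inside the longer span of Id2 in GENCODE M21, in no exon of it. Both strands were searched, and GGCGCC and GTCTAGAC read the same on either strand. GGCGCC was found in 3 of the 7 members with a window and in 11.9% of all 32851 windows, and GTCTAGAC in 1 member and in 0.213% of all windows. The shorter SMAD core GTCT, which GTCTAGAC contains, was in 5 of the 7 members but in 88.0% of all windows. The composite element of BMP SMADs with SMAD4, searched as GGCGNC and, after 5 further bases, GTCT, was in 0 of the 7 and in 0.244% of all windows. The E-box CANNTG, bound by the bHLH factors that Id proteins hold back, was in 5 members and in 72.3% of windows. These matches describe letters and not binding sites, and the motifs were chosen after the windows had been searched.

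FPKM values are scaled to transcript length and library size, so levels of different genes can be set side by side. The steps between low values put 1 fragment on a transcript of 2000 bp at 0.128 to 0.296 FPKM. Depth thus differed 2.32-fold between the deepest and the shallowest library (FP 11 and RR 14) provided no scaling between libraries was applied. Taking each member's longest transcript, the members rested on about 11 (Smad6 in RR 11) to 386 fragments (Id2 in FP 11). Across 14789 genes, log2 values correlated at Pearson's r of 0.856 to 0.873 between FP libraries and 0.787 to 0.845 between RR libraries (genes are not independent replicates). RR 14 stood apart on the first principal component, at 76.9 against 19.5 and 9.11 in RR 11 and RR 16 and -38.5 to -32.3 in FP. Col2a1, the main cartilage collagen, was between 38700 and 81870 FPKM in every library.

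Of the 10 members, Id3 rose in FP against RR and no member fell, with the estimate higher in FP for 9 and lower for 1. The test was limma on log2(FPKM + 1) for 14789 genes averaging 1 FPKM or more, a filter that all 10 members passed, with Benjamini-Hochberg adjustment over all of them and adjusted p under 0.05 as the threshold. By that rule 0.554% of all tested genes were higher, 0.412% lower and 0.967% either. The groups did not overlap for 8 members (16% of all tested genes), with all 3 FP values above all 3 RR values for 7 (8.74% of all tested genes) and below them for Bmpr1b (7.28%). An unadjusted p under 0.05 was reached by 8 of the 10, Bmpr1b among them, and by 10.3% of all tested genes. The median log2 change of the members was 1.26, and that of all tested genes 0.02. Of the 10, 7 lay above 1 on this scale, as did 3.81% of all tested genes. The scale understates the change of low genes. Fewer cells of a type and less RNA per cell cannot be told apart in such bulk libraries.

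**Figure D1:**
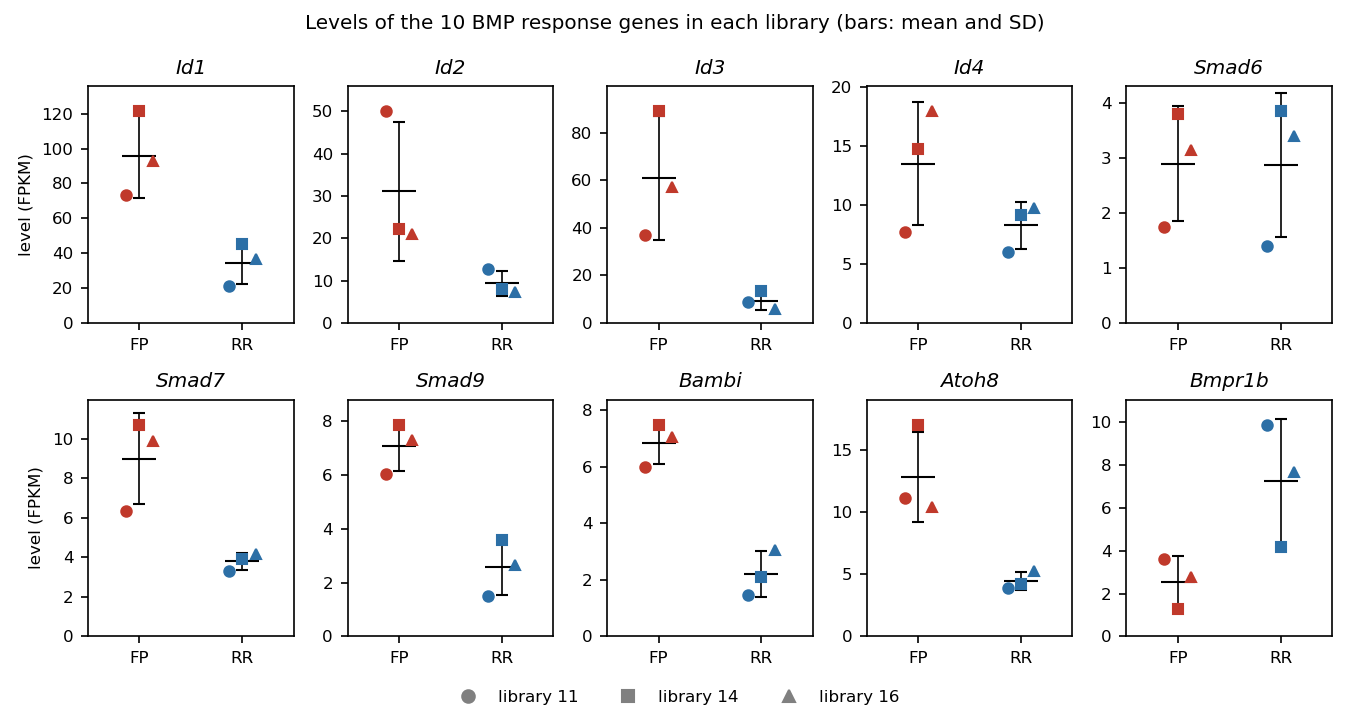
Level in FPKM (linear axes from 0) of each of the 10 members in the 3 FP (red) and 3 RR (blue) libraries, with marker shape for the library number, and mean and SD as black bars. FP lies above RR without overlap in 7 panels, below it for Bmpr1b, and overlaps it for Id4 and Smad6.

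Id3, whose product is an inhibitor of bHLH factors in proliferating and differentiating cells, had the largest difference of the members. It stood at 37.1, 89.0 and 57.1 FPKM in FP libraries 11, 14 and 16, and at 8.87, 13.5 and 5.87 FPKM in RR libraries 11, 14 and 16. The lowest FP library was thus above the highest RR library, and FP 14 was the highest of all. Mean levels were 61.1 ± 26.2 and 9.41 ± 3.84 FPKM (SD, n = 3 each), a 6.49-fold difference, with a log2 change of 2.56 ± 0.40 (SE, limma adjusted p = 0.0256). Only 0.446% of all tested genes had a larger estimate. The call held without RR 14 (adjusted p = 0.0452) or FP 11, and was lost without FP 14, FP 16, RR 11 or RR 16 (0.0943, 0.124, 0.0692 and 0.0851). It was also lost after quantile normalization (0.0652), without an intensity trend (0.0520) and without a filter (0.184).

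Id1, the most responsive Id gene in many BMP-treated cells, was the most abundant of the family in all 6 libraries. Its levels were 73.4, 121 and 92.9 FPKM in FP libraries and 21.1, 45.2 and 36.5 FPKM in RR, in the order 11, 14 and 16. Every FP library was above every RR library, with library 14 highest and library 11 lowest in each group. Means of 95.9 ± 24.1 and 34.3 ± 12.2 FPKM differed 2.80-fold, but the log2 change of 1.49 ± 0.35 did not pass (adjusted p = 0.126).

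Id2, which is also a partner of the retinoblastoma protein, was at 49.98, 22.3 and 21.0 FPKM in FP libraries and at 12.8, 7.98 and 7.35 FPKM in RR. The groups did not overlap, and library 11 was the highest in both. Means were 31.1 ± 16.4 and 9.37 ± 2.97 FPKM, 3.32-fold apart, with a log2 change of 1.55 ± 0.38 (adjusted p = 0.153). Among the Id genes, Id4 had the smallest difference, at 7.75, 14.8 and 17.9 FPKM in FP libraries and 6.01, 9.15 and 9.71 in RR. FP 11 fell inside the RR range, and the log2 change was 0.59 ± 0.35 (adjusted p = 0.661, 95% interval -0.20 to 1.39). Exons of Id4 overlap those of A330033J07Rik, a noncoding gene on the opposite strand, which was at 1.76, 3.33 and 3.97 FPKM in FP libraries and 0.939, 2.25 and 1.93 in RR. Whether strand was used in counting is not stated, so reads of the shared stretch may belong to either.

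The Id family together summed to 168, 247 and 189 FPKM in FP libraries 11, 14 and 16 and to 48.7, 75.8 and 59.5 FPKM in RR, with no overlap. The makeup of the sum was compared next. Id3 supplied 22.1%, 36.0% and 30.2% of the summed Id level in FP and 18.2%, 17.8% and 9.86% in RR, or 29.4% ± 6.99 and 15.3% ± 4.70 (SD, n = 3 each). Id4 had the opposite pattern, with 4.61%, 5.97% and 9.49% in FP and 12.3%, 12.1% and 16.3% in RR. The shares of Id1 (43.6% to 49.2% in FP and 43.2% to 61.4% in RR) and Id2 (16.6% ± 11.4 and 16.4% ± 8.58) overlapped between groups. Id2 made up 29.7% and 26.2% in the libraries numbered 11 and 9.0% to 12.4% in the other four. A share does not move with scaling between libraries. These shares are descriptions with no test, and 3 libraries against 3 could not reach an exact permutation p under 0.05.

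**Figure D2:**
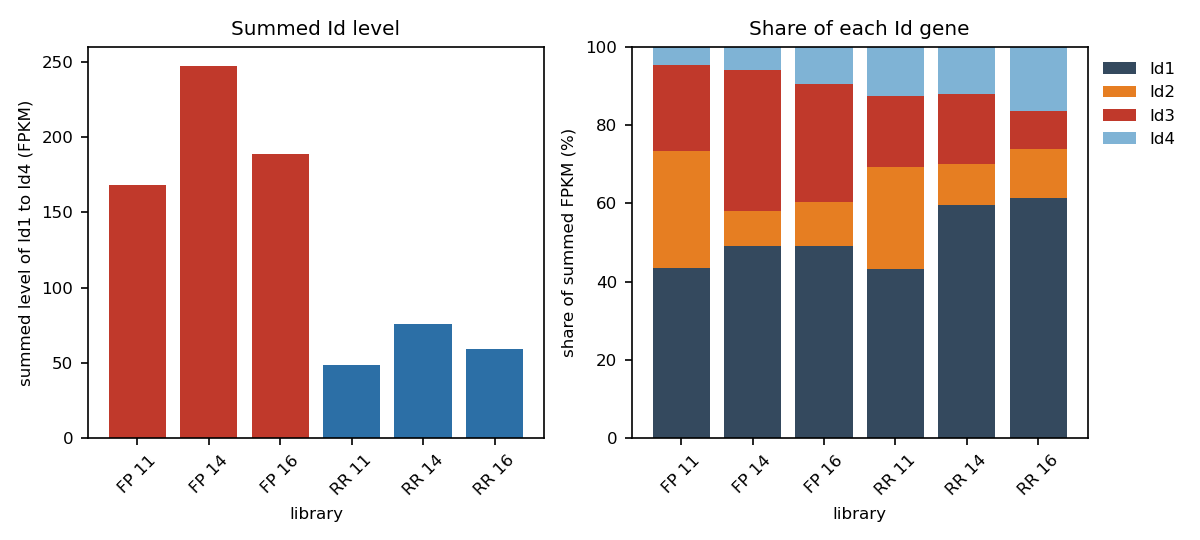
Left, summed level of Id1 to Id4 in FPKM in each library (FP red, RR blue); right, the share of each Id gene in that sum in percent. The sums run from 168 to 247 FPKM in FP libraries and from 48.7 to 75.8 in RR, and the Id3 part is larger and the Id4 part smaller in every FP library than in any RR library.

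The inhibitory SMADs were Smad6 and Smad7. Smad7, which blocks both BMP and TGF-beta receptors, was at 6.36, 10.7 and 9.88 FPKM in FP libraries and at 3.31, 3.90 and 4.16 FPKM in RR, without overlap. Its means of 8.98 ± 2.30 and 3.79 ± 0.44 FPKM were 2.37-fold apart, and the log2 change of 1.03 ± 0.28 did not pass (adjusted p = 0.189). Smad6, the inhibitor more selective for BMP type I receptors, was at 1.75, 3.804 and 3.15 FPKM in FP libraries and at 1.39, 3.85 and 3.41 FPKM in RR. The groups covered the same range, and library 11 was the lowest in each. Its log2 change was 0.03 ± 0.38 (adjusted p = 0.992), with a 95% interval from -0.82 to 0.89. The interval of Smad7, 0.40 to 1.67, overlapped it. The sign of the Smad6 estimate turned without FP 14, FP 16 or RR 11 (-0.14, -0.03 and -0.28). With about 11 to 29 fragments a library, Smad6 was also the member with the thinnest data. The difference between the changes of Smad6 and Smad7 was not tested.

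Bambi, a pseudoreceptor without a kinase that sits in receptor complexes, was at 6.01, 7.48 and 7.07 FPKM in FP. In RR it was at 1.45, 2.096 and 3.06 FPKM, so that the groups did not overlap. Means of 6.85 ± 0.76 and 2.2 ± 0.81 FPKM differed 3.11-fold, with a log2 change of 1.32 ± 0.29 (adjusted p = 0.0950). Smad9, the BMP transducer that is itself induced by BMP, was at 6.06, 7.87 and 7.31 FPKM in FP libraries and 1.49, 3.61 and 2.68 FPKM in RR. Every FP library exceeded every RR library, and the log2 change was 1.21 ± 0.30 (adjusted p = 0.162). Among the 3 BMP transducers, Smad9 made up 26.2% ± 3.65 of the summed FPKM in FP libraries and 16.7% ± 7.74 in RR, with RR 14 at 25.1% inside the FP range. The sum of Smad1, Smad5 and Smad9 was 27.1 ± 0.96 FPKM in FP libraries and 15.7 ± 1.59 in RR, without overlap.

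Atoh8, a bHLH transcription factor gene induced by BMP in skeletal and endothelial cells, was at 11.1, 17.0 and 10.4 FPKM in FP libraries and at 3.91, 4.21 and 5.26 FPKM in RR. Its RR values were close together, and FP 14 was again the highest. Means were 12.9 ± 3.62 and 4.46 ± 0.71 FPKM, 2.88-fold apart, and the log2 change was 1.32 ± 0.28, which did not pass (adjusted p = 0.0881).

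Bmpr1b was the one member with a lower estimate in FP. It codes for a BMP type I receptor of cartilage condensations and growth cartilage that also binds GDF5. Its levels were 3.63, 1.29 and 2.76 FPKM in FP libraries and 9.88, 4.17 and 7.70 FPKM in RR, so that every FP library was below every RR library. Means of 2.56 ± 1.18 and 7.25 ± 2.89 FPKM were 2.83-fold apart, with a log2 change of -1.21 ± 0.38 that did not pass (adjusted p = 0.283, 95% interval -2.08 to -0.33). Of the summed FPKM of the BMP type I receptors Bmpr1a, Bmpr1b, Acvr1 and Acvrl1, Bmpr1b supplied 12.0%, 6.94% and 15.4% in FP and 27.3%, 17.8% and 27.3% in RR. The shares of Bmpr1a, at 38.3% ± 10.4 and 35.6% ± 9.98, overlapped between groups, as did those of Acvr1 and Acvrl1.

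**Figure D3:**
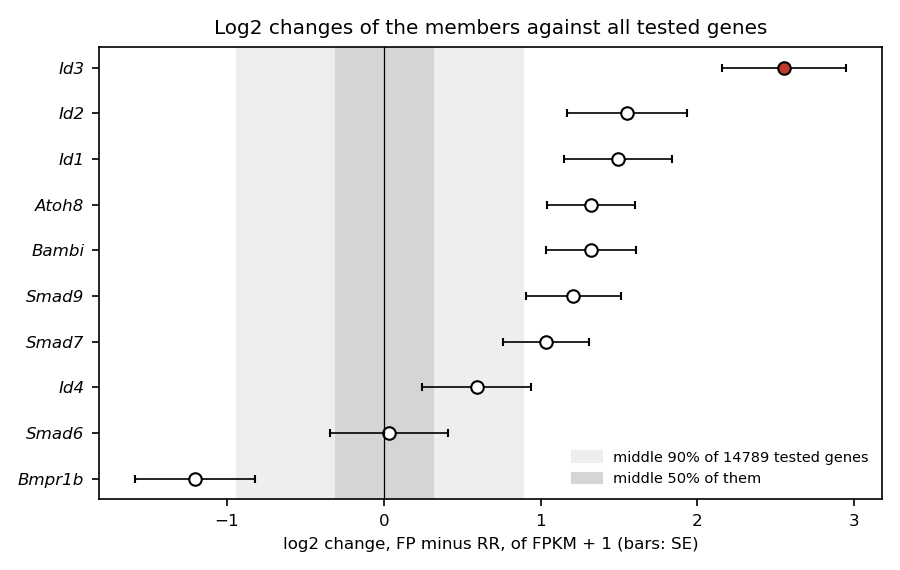
Log2 change (FP minus RR, of FPKM + 1) of each member with its SE; the filled point passed the threshold, and the grey bands hold the middle 50% and the middle 90% of the 14789 tested genes. Of the members, 7 lie to the right of the wider band, Id4 and Smad6 within it and Bmpr1b to its left.

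By level, the family order was Id1, Id3, Id2 and Id4 by the group means in both FP and RR. In RR, the mean levels of Id3, Id2 and Id4 (9.41, 9.37 and 8.29 FPKM) differed by less than their SDs. In FP, Id4 and Atoh8 (13.5 ± 5.21 and 12.9 ± 3.62 FPKM) did not separate, nor did Smad9 and Bambi (7.08 ± 0.93 and 6.85 ± 0.76). Smad6 and Bmpr1b were the lowest members in FP, at 2.90 ± 1.05 and 2.56 ± 1.18 FPKM, whereas in RR Bmpr1b was level with Id4 within the SDs.

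Id3 was then set against 6550 genes averaging 5 FPKM or more, predicted (Gm and Rik) and small RNA names left out, by the root mean square difference of log2 values centred over the 6 libraries. The 5 genes most like it were Ccdc88c (0.35), Wnt11 (0.39), Col6a3 (0.42), Cdk6 (0.45) and Col6a2 (0.47). Ccdc88c, the gene of a Dishevelled-binding protein, was at 25.9, 58.5 and 31.2 FPKM in FP libraries and 3.63, 8.59 and 6.05 in RR. Because these genes were picked for following Id3, their difference between FP and RR is no separate result. The other members were placed on the same scale whatever their mean. Id1 came nearest to Id3, with a difference of 0.67 and rank 35, then Atoh8 at 0.77 and Smad9 at 0.79.

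Among 65 other genes of the pathway, listed by role, 54 were tested, of which 3 rose and 3 fell, and their median log2 change was 0.10. Of 9 tested receptors and co-receptors other than Bmpr1b, none passed the limma test (0 at an unadjusted p under 0.05 as well). Their median was -0.17, and the smallest p belonged to Rgma, a co-receptor (0.59 ± 0.34), and Eng, the endoglin co-receptor (-0.32 ± 0.27). Of 12 SMAD transducers and regulators none passed, and 1 had an unadjusted p under 0.05. This was Smad1, the main BMP transducer, at 12.5, 14.8 and 12.4 FPKM in FP libraries and 5.67, 6.75 and 8.41 FPKM in RR, without overlap (log2 change 0.85 ± 0.26, adjusted p = 0.25). Tob2, an antiproliferative gene of the family of the SMAD-binding Tob proteins, stood at 0.61 ± 0.33.

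Of 10 tested ligands, Gdf10 rose by 3.11 ± 0.49 on the log2 scale, and Bmp3, an atypical family member known to oppose BMP signalling, fell by 3.997 ± 0.31 (adjusted p = 0.00197). Gdf5 fell as well. Gdf5, a ligand of the Bmpr1b receptor, was at 0.982, 0.867 and 0.793 FPKM in FP libraries and at 4.48, 9.85 and 17.9 FPKM in RR. It therefore shared the direction of Bmpr1b, with a log2 change of -2.47 ± 0.43 (limma adjusted p = 0.0395, lost in 5 of the 6 fits without 1 library, up to 0.161). The Gdf5 call was also lost among genes averaging 5 FPKM or more (0.0821), without an intensity trend (0.067) and after quantile normalization (0.0519). The Gdf10 call (adjusted p = 0.0261) did not hold when FP 11, FP 14, FP 16 or RR 11 was left out (up to 0.136), nor without a trend (0.052). An unadjusted p under 0.05 was reached by 6 of the 10 tested ligands (10.3% of all tested genes). FP lay above RR without overlap for 3 ligands and below it for 3 (8.74% and 7.28% of all tested genes). Besides the called genes these were Bmp6 (log2 change 2.15 ± 0.44, limma adjusted p = 0.0758) and Bmp2 (0.91 ± 0.38, 0.451), both higher in FP. The remaining ligand, Bmp5, was lower in FP (-1.30 ± 0.44, 0.315). Of 8 tested secreted antagonists, Nog, itself induced by BMP, rose by 3.27 ± 0.31 and Grem1 fell by 3.45 ± 0.38 on the log2 scale, and both calls held whichever library was left out. Of the 6 pathway genes called over all lists, Bmp3 alone stayed under 0.05 when no filter was applied (0.0726 to 0.239 for the other 5).

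Among 8 tested bHLH partners of the Id proteins, none passed the limma test, and 2 had an unadjusted p under 0.05. For Scx, the scleraxis gene, FPKM values were 1.73, 3.43 and 3.23 in FP and 4.13, 6.85 and 11.1 in RR (-1.09 ± 0.37, adjusted p = 0.333). Tcf4, of an E protein that Id proteins bind, was at 11.7, 14.3 and 10.4 FPKM in FP libraries and 18.8, 18.7 and 20.3 in RR (-0.64 ± 0.25, adjusted p = 0.407). Groups did not overlap for either, with FP below RR, as for 7.28% of all tested genes. Over the list, 5 of the 8 estimates were higher in FP and 3 lower, with a median of 0.08. Of 7 tested BMP-responsive homeobox and other factors, Dlx5 rose, at 48.7, 25.4 and 27.4 FPKM against 6.97, 3.98 and 5.73 (2.37 ± 0.33, adjusted p = 0.0160). Its call was lost without FP 16, RR 14 or RR 16 (0.0729, 0.0653 and 0.0646). Runx2 was the other factor of that list at an unadjusted p under 0.05. It lay above RR in every FP library but did not pass (0.73 ± 0.30, limma adjusted p = 0.454). The median of that list was 0.20.

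**Figure D4:**
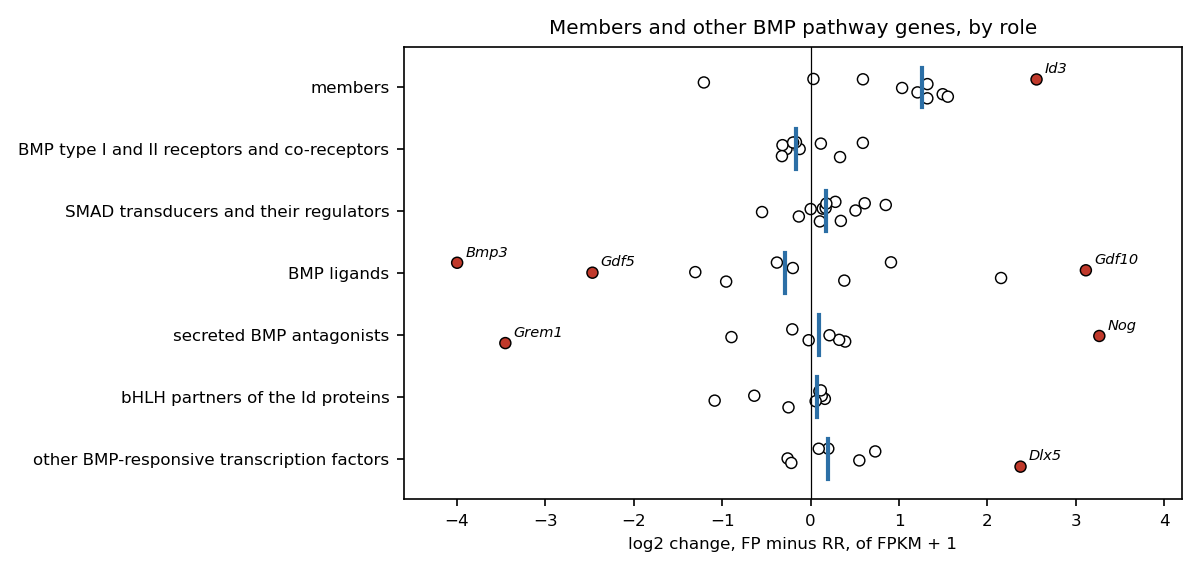
Log2 change (FP minus RR, of FPKM + 1) of the members and of the tested genes of 6 other lists of the BMP pathway; filled points passed the threshold and blue bars are list medians. The members' median lies at 1.26 and the medians of the other lists between -0.29 and 0.20, with called genes on both sides among ligands and antagonists.

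Markers of cell types moved with these members in some cases. Of 6 hypertrophic chondrocyte markers, 5 rose and 0 fell, and their summed level was 588 to 693 FPKM in FP libraries and 11.7 to 31.1 in RR. Of 6 resting chondrocyte markers 5 fell and 0 rose, with sums of 508 to 781 FPKM in FP libraries and 3136 to 4435 in RR. The 7 general chondrocyte markers all had a higher estimate in FP, with a median log2 change of 0.88. Their sums were 48320 to 80810 FPKM in FP and 41490 to 86200 in RR, and Col2a1 (38700 to 81870 FPKM) made up most of each. Comp, which codes for a matrix protein of cartilage, was called and rose 11.7-fold (limma adjusted p = 0.0031), and groups also did not overlap for Sox9 and Acan. The part of these differences in the members' values was not tested. Id1, Id3, Smad6 and Atoh8 are also expressed in endothelial cells, whose 10 markers summed to 11.1 to 20.9 FPKM in FP libraries and 9.38 to 31.7 in RR. None of the 8 tested endothelial markers passed (limma, 0 also at an unadjusted p under 0.05), and none was at 0 in all libraries. By library the sums were 11.1, 20.9 and 19.0 FPKM in FP 11, 14 and 16 and 9.38, 24.6 and 31.7 FPKM in RR, so the groups overlapped. Osteoblast marker sums were 265 to 790 FPKM in FP libraries and 124 to 1178 in RR, with Col1a1 the largest part in every library. Of the 7 markers, limma called 1 higher (Sp7), and 2 had an unadjusted p under 0.05. The second was Ibsp, the bone sialoprotein gene, at 138, 191 and 90.8 FPKM in FP and 41.6, 10.7 and 7.18 FPKM in RR (adjusted p = 0.0571). Both lay higher in every FP library than in any RR library. The groups overlapped for the other osteoblast markers, Bglap, Bglap2, Col1a1, Ifitm5 and Dmp1, with log2 changes from -0.15 to 0.65. Muscle marker sums were 103 to 189 FPKM in FP, and in RR they were 192, 29.7 and 41.0 in libraries 11, 14 and 16, with 0 of 6 called by limma (1 at an unadjusted p under 0.05). All 6 muscle markers had a higher estimate in FP, with a median log2 change of 1.18, and the groups overlapped for each. Sums of perichondrium or fibroblast markers were 261 to 921 FPKM in FP libraries and 259 to 1675 in RR, with 0 of 6 called (1 at an unadjusted p under 0.05). Osteoclast (10.9 to 111 and 17.1 to 117 FPKM) and blood marker sums (72.3 to 115 and 51.2 to 117 FPKM) had 0 called of 4 and of 2 tested, also at an unadjusted p. The part of these cell types in the members' values was not tested.

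In the genome (GENCODE M21 on mm10), Id1 lies on chromosome 2 (152736251 to 152737410, plus strand), Id2 on chromosome 12 (25093799 to 25097140, minus) and Id3 on chromosome 4 (136143497 to 136145755, plus). Id4 lies on chromosome 13 (48261228 to 48266026, plus), Smad6 on chromosome 9 (63953076 to 64022059, minus) and Atoh8 on chromosome 6 (72206177 to 72235577, minus). Smad9 (54755582 to 54801257, plus) and Bmpr1b (141837136 to 142169425, minus) are both on chromosome 3. Smad7 (75367529 to 75395935, plus) and Bambi (3507923 to 3516404, plus) are both on chromosome 18. All 10 are protein-coding genes, and apart from Id4 none overlaps another gene of the basic annotation.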

How the data were processed

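The authors deposited FPKM values, with 1 file for each library, as the file headers name them. Tools listed in the submitters' processing notes are Cuffdiff 2.2.1, TopHat2 2.1.1, SAMtools 0.1.18 and Bowtie2 2.2.8, on build mm10. Which step each tool did, the annotation, the use of strand and any scaling between libraries are not given. FP and RR were compared by a two-sided limma test (version 3.58.1, R 4.3.3) of log2(FPKM + 1), with moderation along an intensity trend and no block, over genes averaging 1 FPKM or more. The fit was tested on 5 simulated sets with independent normal spread, in which some genes averaging 5 FPKM or more were changed. It called 1.6% of true log2 changes of 1, 49.6% of changes of 2 and 96.4% of changes of 3 (250 genes each). Of the unchanged genes, 0.0288% were called. Fold values are ratios of mean FPKM. Fragment values came from symbols with 1 GENCODE M21 basic transcript of 1500 to 3000 bp: 70.4% to 74.1% of low values were whole within 0.1 fragments, against 20% by chance. Totals of fragments are unknown.

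The members and lists were chosen with earlier results of these data known. Genes named are the members, up to 4 called genes of each pathway list or else the 2 of smallest p, and the 5 genes most like Id3 (Gm, Rik and small RNA names left out). Of the ligands and the BMP-responsive factors, all at an unadjusted p under 0.05 were named too. Markers were summed by list. Alternatives were another pseudocount, other filters, no trend, 2 scalings, library weights, the library number as a block, and each library left out.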

Additional observations from a re-analysis of the deposited data

How the results depend on the processing

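Under 14 alternatives, 133 of 136 member values kept their direction, and the 3 exceptions were Smad6, which ran from -0.28 to 0.27 when 1 library was left out. The count of members called higher was 1, became 0 without a filter, without an intensity trend and after quantile normalization, 2 among genes averaging 5 FPKM or more (Id3, and Atoh8 with adjusted p = 0.0477, of 6 members then tested), and 0 to 1 without 1 library. No member was called lower under any of them. All genes called were 82 higher and 61 lower, 7 and 10 without a filter (2011 symbols then tested were at 0 in all libraries), 46 and 37 without a trend, and 27 to 56 and 15 to 35 without 1 library, lowest without FP 16. Other pathway genes called were 3 and 3, 0 and 1 without a filter, and 1 to 3 and 2 to 3 without 1 library. The members' median was 1.49 with a pseudocount of 0.1 and 1.05 to 1.33 without 1 library, lowest without RR 11. Leaving out 1 library moved the Id3 share to between 26.1% and 33.1% in FP and between 13.8% and 18% in RR, and the Bmpr1b share to 9.49% to 13.7% and 22.6% to 27.3%. The cause was not tested. Where 1 library was left out, its group kept 2.

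With the library number as a replicate block, 160 genes were called higher and 111 lower, and 3 members were called higher: Id1, Id2 and Id3 (limma adjusted p = 0.0174, 0.0217 and 0.0110). The labels do not say what the number marks. Deviations from the group means correlated across genes at 0.319, 0.185 and 0.089 for numbers 11, 14 and 16, each library correlating best with its own number, as a hint from the data and not the design. The 3 numbers came in the same order in both groups for 6 of the 10 members and for 27.4% of all tested genes without ties.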
